A study of Mus musculus with 12 samples.

Results

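Replication-dependent histone genes supply the histones that package newly copied DNA. The 55 genes described here are all rows whose symbols name a clustered H1, H2A, H2B, H3 or H4 gene (H1f1 to H1f5, and every H2ac, H2bc, H3c and H4c gene with a number), out of 22416 genes in the count files. They comprise 5 H1, 14 H2A, 14 H2B, 12 H3 and 10 H4 genes, all matched to RefSeq on GRCm38.p6, with 45 on chromosome 13 and 10 on chromosome 3. The symbols chose the genes and no measured value enters that rule, but the rule was set with earlier results of these data known. Core histones H2A, H2B, H3 and H4 form the nucleosome, and H1 histones bind the DNA that links nucleosomes. The mRNAs of these genes end in a stem-loop in place of a poly(A) tail, are bound there by the protein Slbp, and accumulate while a cell copies its DNA. In the epidermis, dividing cells lie mainly in the basal layer, and cells that enter the spinous layer leave the cell cycle.

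Ribosome footprints, the fragments of mRNA covered by ribosomes, were counted per gene in single cells of back skin epidermis from female C57Bl/6 mice, each injected with cycloheximide, a drug that halts ribosomes, before cell isolation. Young animals were P57, P59 and P60 and old animals P662, P722 and P758, named by postnatal day (n = 3 each). Live cells were sorted 1 per well, without a Sca-1 gate, onto 5 young and 5 old plates. A plate of P758 labelled as a nuclease test and a plate of Sca-1-negative cells from a young and an old animal (P57 and P679) were described apart.

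Of 1924 wells on the 10 ungated plates, 1906 held at least 100 counts and were kept. Summed counts ran from 5230 (P57) to 2384294 (P60), so that 1 count was worth 191 CPM (counts scaled to the same total in every library) in P57, 77.6 in P722, 80.8 in P59, 14.2 in P662, 1.12 in P758 and 0.419 in P60. Wells of P60 and P758 made up nearly all of the wells with 500 counts or more (807 and 472 of 1329). The markers of epidermis were present: of the off wells defined below, 860 of 1170 held more counts of the 6 basal than of the 6 spinous markers. The 384 barcodes of a plate recur on the others, since they index wells and not cells. No pair of plates held identical values. A footprint count joins the amount of an mRNA with its translation, and no mRNA counts were used here, so more mRNA and more translation per mRNA cannot be told apart.

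The promoters of the members are shown first, because the members share sequence motifs by class. RefSeq promoter windows (250 bases before to 50 after the start, GRCm38.p6) were found for 50 members, in 51 windows. The 150 bases before the start are given for 7 of them, 5′ to 3′ on the strand of the gene. H2bc12 and H2bc8 show the H2A and H2B motif, H1f5 and H1f2 the H1 motif, H4c6 and H4c4 the H4 motif, and H3c2 the CCAAT box. Capitals mark a match on either strand: ATTTGCAT in the H2B genes, AAACACA in the H1 genes, and GGTCCG in the H4 genes. CCAAT is in capitals in the H1, H2B and H3 genes, as ATTGG where it lies on the other strand. The window of H4c4 also holds it on the other strand, left in lower case.
H2bc12, chr13:22035671-22035820, plus strand: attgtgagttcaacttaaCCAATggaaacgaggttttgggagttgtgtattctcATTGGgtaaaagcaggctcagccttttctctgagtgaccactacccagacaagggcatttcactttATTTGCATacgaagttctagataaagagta
H2bc8, chr13:23571250-23571399, plus strand: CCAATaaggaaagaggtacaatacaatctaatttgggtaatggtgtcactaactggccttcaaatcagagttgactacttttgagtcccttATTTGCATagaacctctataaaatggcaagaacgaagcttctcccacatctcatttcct
H1f5, chr13:21780626-21780775, minus strand: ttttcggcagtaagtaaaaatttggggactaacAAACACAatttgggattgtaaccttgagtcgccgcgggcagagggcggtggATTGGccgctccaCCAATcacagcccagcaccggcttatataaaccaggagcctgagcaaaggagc
H1f2, chr13:23738657-23738806, plus strand: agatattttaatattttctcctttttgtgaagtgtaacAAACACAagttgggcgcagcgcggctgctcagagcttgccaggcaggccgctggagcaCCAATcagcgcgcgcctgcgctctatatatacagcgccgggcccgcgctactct
H4c6, chr13:23551669-23551818, minus strand: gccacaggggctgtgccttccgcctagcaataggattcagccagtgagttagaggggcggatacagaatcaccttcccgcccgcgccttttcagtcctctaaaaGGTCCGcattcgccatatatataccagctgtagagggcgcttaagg
H4c4, chr13:23581418-23581567, plus strand: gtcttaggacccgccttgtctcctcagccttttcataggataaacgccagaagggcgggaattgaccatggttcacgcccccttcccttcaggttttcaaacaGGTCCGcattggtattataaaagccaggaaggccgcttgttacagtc
H3c2, chr13:23752195-23752344, plus strand: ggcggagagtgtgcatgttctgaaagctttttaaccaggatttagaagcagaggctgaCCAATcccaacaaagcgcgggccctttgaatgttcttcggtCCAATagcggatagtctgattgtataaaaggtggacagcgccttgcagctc

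ATTTGCAT, the octamer that POU factors such as Pou2f1 bind, stood in 13 of the 51 member windows, 6 of 14 for H2A and 7 of 13 for H2B and in no window of the other classes. It stood in 1.74% of all 32851 promoter windows of the same length. AAACACA, known as the H1 box, stood in 4 of 5 H1 windows, 2 H2A and 2 H2B windows, and in 7.18% of all windows. GGTCCG, part of a known H4 element, stood in 8 of 9 H4 windows, 1 H2B and 1 H3 window, and in 8.25% of all. CCAAT, the box bound by NF-Y, stood in 45 member windows, with H4 the exception at 3 of 9 windows, and in 37.4% of all. TATAAA stood in 30 member windows and in 13.6% of all. Each motif was searched on both strands over the whole 300 bases. Head-to-head neighbours can share a window: 7 pairs of H2A and H2B genes lay back to back with 163 to 280 bases between them, among them H2ac12 and H2bc12, so the sequence before H2bc12 also lies before H2ac12.

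The members were translated in an all-or-little pattern over single cells. A well with at least 500 counts was called on if the 55 genes gave at least 10 counts and at least 2% of its counts, off if they gave under 0.5%, and between otherwise. Of 1329 such wells, 43 (3.24%, exact 95% interval 2.35 to 4.33) were on, 116 between and 1170 off. The 43 on wells held 24973 of the 31295 histone counts in kept wells (79.8%). On wells had a lowest, median and highest histone share of 2.02%, 9.27% and 26.6% of their counts, with a median of 44 members detected. Off wells had 0%, 0.153% and 0.498%, with a median of 2 members. On wells were deeper, with a median of 2784 counts against 1388. After each well was thinned to 500 counts, the same 43 wells passed the on rule. They then held a median of 45 histone counts (range 11 to 135) from 25 members, beside a median of 1 count (0 to 5) from 1 member in off wells. The rule set these states, so the gap between them is a description.

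The shares left a sparse stretch between the states. Among the 1329 wells 210 had no histone count, 166 had a share under 0.1%, 487 lay from 0.1 to under 0.25%, 307 from 0.25 to under 0.5% and 104 from 0.5 to under 1%. Only 12 wells lay from 1 to under 2%, 3 from 2 to under 3% and 1 from 3 to under 4%. Above that the count of wells rose again, with 11 from 4 to under 8%, 17 from 8 to under 12%, 6 from 12 to under 20% and 5 from 20 to under 40%. Next to the limit, the highest well below it had 1.52% (29 of 1907 counts) and the lowest on well 2.02% (30 of 1488).

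**Figure D1:**
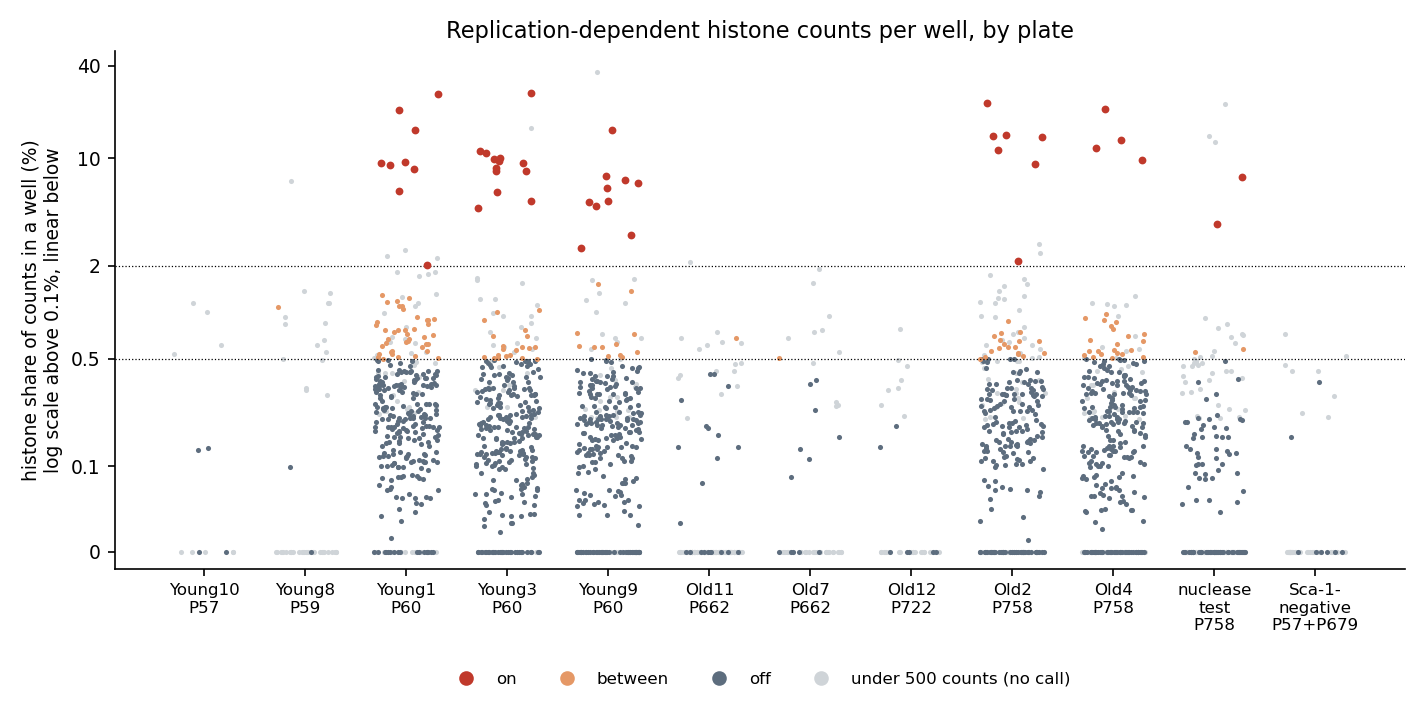
Share of a well's counts from the 55 histone genes (%, log scale above 0.1%, linear below) for every kept well of each plate; colours give the state, pale points are wells under 500 counts without a call, and dotted lines mark 0.5% and 2%. On wells appear on the 3 plates of P60, both plates of P758 and the nuclease test plate, with few wells between 2% and 4%.

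On wells occurred on every deeply sampled plate. P60 had 32 on wells of 807 (3.97%, exact 95% interval 2.73 to 5.55), with 9 on Young1, 13 on Young3 and 10 on Young9. P758 had 11 of 472 (2.33%, 1.17 to 4.13), with 7 on Old2 and 4 on Old4. The intervals of the young and the old animal overlapped. The other 4 animals had no on well, among 36 wells of P662, 7 of P722, 4 of P57 and 3 of P59. Their exact 95% intervals reached 9.74% in P662 and 41.0%, 60.2% and 70.8% in P722, P57 and P59. Shares of on wells up to these values were not excluded. All of these intervals cover counting error only. Without P60 the share of on wells over all animals was 2.11%.

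A few wells held most of the histone counts of an animal. On wells carried 81.7% of the histone counts of P60 and 74.4% of those of P758. The richest well of Old4 held 38.1% of that plate's histone counts, and the richest of P60 held 9.51% of that animal's. Among wells too shallow for a call, 9 had a share of 2% or more. They include a Young9 well with 81 histone counts of 224 (36.2%), a Young3 well with 52 of 329 (15.8%) and a Young8 well with 10 of 141 (7.09%).

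Single on wells translated members of all 5 classes together. A single gene gave at most 18.2% of the histone counts of an on well, and at the median the leading gene gave 8.45%. H1f4, an H1 linker histone, and H4c4, an H4 gene, were the only members with a count in each of the 43 on wells. H2bc8, H2bc18 and H4c8 had a count in 42, and H2ac10 in 40. Lower members such as H3c8 (26 wells), H2ac21 (22) and H4c12 (19) were missing from many on wells. Between the 11 on wells of P758 and the 32 of P60, the CPM per kilobase of the 52 members with a gene span under 1000 bases had a Spearman rho of 0.926, a description over genes that share libraries. The on well of P758 with the lowest share (11 of 510 counts) stood apart. It had 6 of its 11 histone counts from H4 genes and none from H2A, 50 counts of spinous markers, 1 of basal markers and none from the cell cycle lists below.

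**Figure D2:**
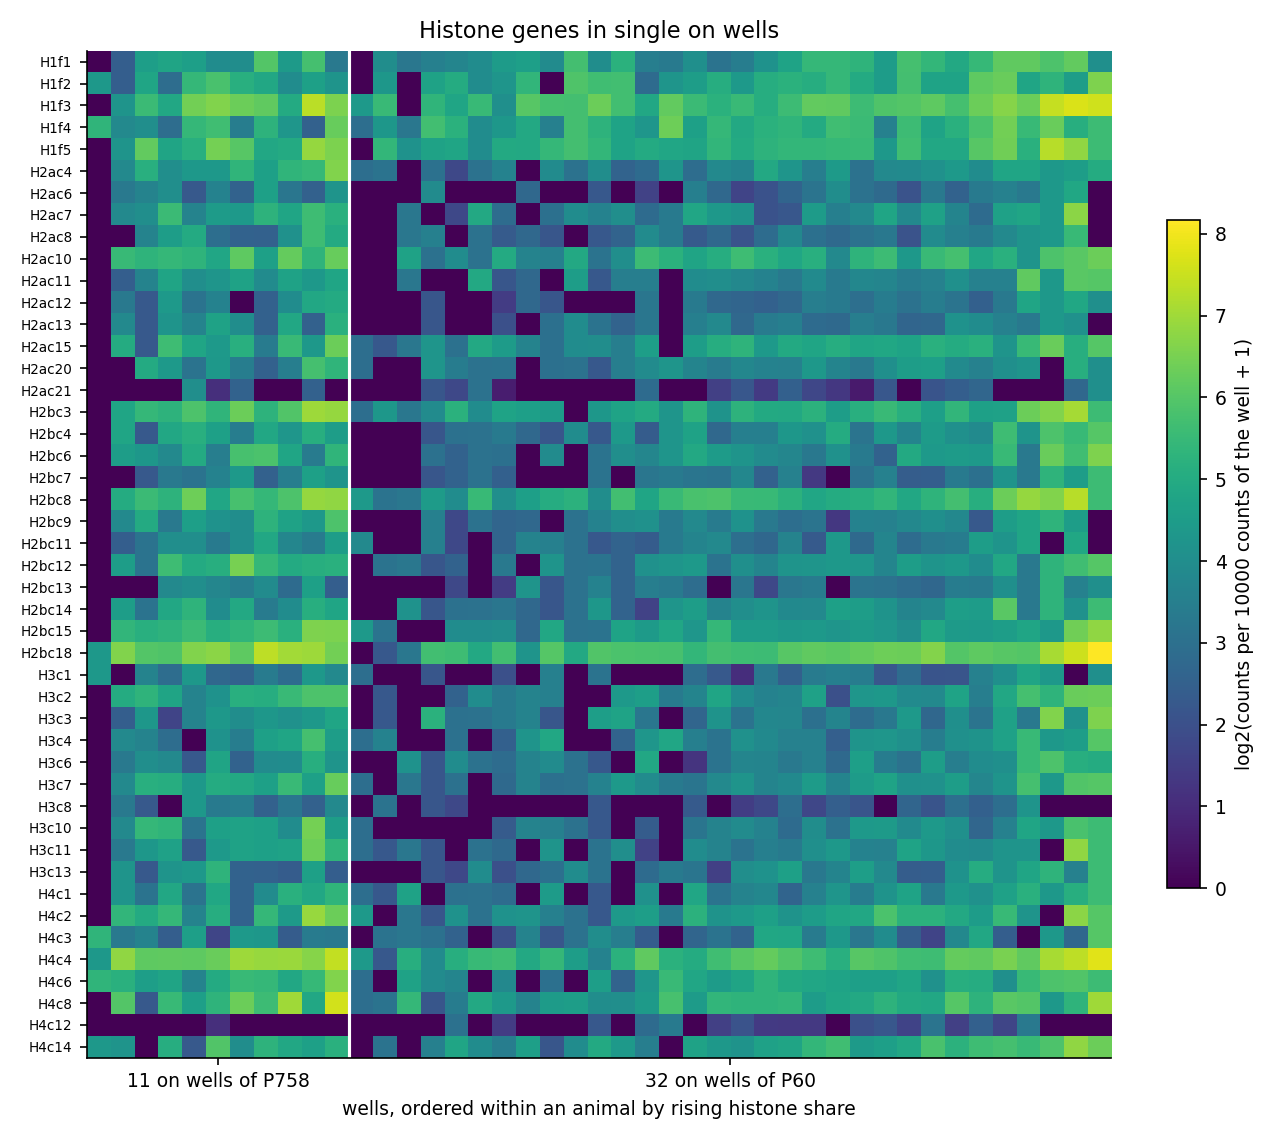
Counts of 46 histone genes (those with at least 50 counts) in each of the 43 on wells, as log2(counts per 10000 counts of the well + 1), with wells ordered by rising histone share within P758 and P60. Nearly all genes are present in most on wells; the leftmost column is the P758 well with 11 histone counts.

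Class balance differed between the states. In on wells H1 genes gave 19.8% of the histone counts, H2A 16.3%, H2B 28.4%, H3 13.3% and H4 22.2%. In off wells, which held 4804 histone counts, H1 gave 28.4%, H2A 4.79%, H2B 17.9%, H3 5.25% and H4 43.7%. The H4 share in off wells was 42.6% in P60 and 47.1% in P758, beside 22.2% and 22.1% in their on wells. The H2A share was 5.06% and 4.07% in off wells, beside 16.1% and 17.2% in on wells. Exact 95% intervals of these H2A and H4 shares did not overlap between the states in either animal, and they cover counting error only. Per kilobase of RefSeq gene span, without the 3 members of 1000 bases or more, H4 made up 28.8% in on wells and 56.5% in off wells, and H2A 17.2% and 5.13%.

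Plates without an on well had H4 and H2A shares near those of off wells. They were set apart for lacking on wells, so that nearness is in part given by the choice. On the 5 plates without an on well (Young8, Young10, Old7, Old11 and Old12), 159 histone counts from 298 kept wells gave 0.157% of all counts. Only 50 of these wells had the 500 counts needed for a call, and a shallow Young8 well (10 of 141 counts) met the on rule but for its depth. Of the 159 histone counts H4 made up 40.3% (32.6 to 48.3), H2A 5.03% (2.20 to 9.67) and H3 4.4%. H1 made up 26.4% (19.7 to 34.0) and H2B 23.9% (17.5 to 31.3), and these 2 intervals cover the shares of both states. Wells between the states also had the off balance, with H4 at 45.6% and H2A at 5.78% of their histone counts. Over the 6 animals, all wells together, the mean shares were 27.1% ± 7.90 for H1, 6.59% ± 6.30 for H2A, 22.6% ± 8.88 for H2B, 6.96% ± 4.93 for H3 and 36.8% ± 11.4 for H4 (SD, n = 6). With only wells of at least 500 counts the mean of H1 was 43.1% and that of H4 22.3%, so that their order turned. Nothing is read from that turn, since P722, P57 and P59 have only 7, 4 and 3 such wells. The histone share in those wells was 0.0501% in P722 and 0.0674% in P57, so their class shares rest on very few counts. Over all kept wells the means weigh animals with 11 histone counts like P60 with 24906. With counts summed over animals H2A came to 14.1%.

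**Figure D3:**
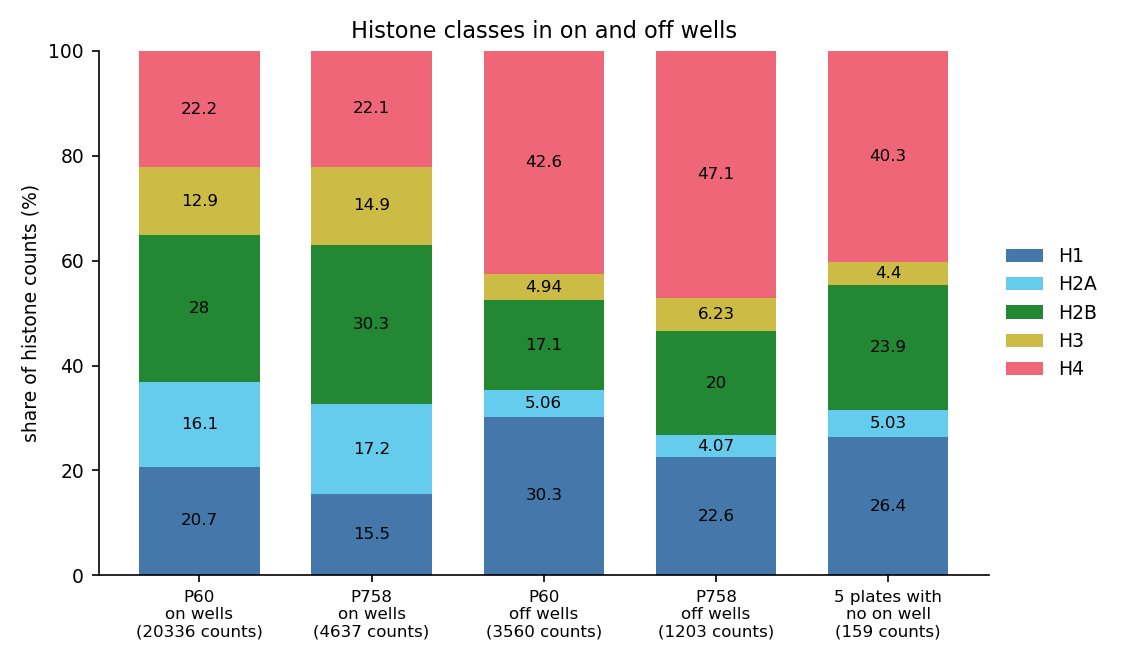
Share of histone counts (%) from H1, H2A, H2B, H3 and H4 genes in on and off wells of P60 and P758 and on the 5 plates without an on well, with the number of histone counts below each bar. H4 is near 22% in on wells and above 40% elsewhere, and H2A is above 16% in on wells and near 5% elsewhere.

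Among on wells the balance varied most for H1. In the 35 on wells with at least 100 histone counts, H1 gave 6.31 to 34.7% of them, H2A 7.96 to 24.3% and H4 11.3 to 32%. The H1 share had a Spearman rho of -0.58 with the H2A share and of -0.56 with the H4 share over these wells, which is a description of shares that sum to a whole. In P758 H1 made up 15.5% of on-well histone counts (14.5 to 16.6) and in P60 20.7% (20.2 to 21.3). With 1 animal per age, this difference has no replicate check. The plates of P758 also differed. Over all kept wells H1 made up 12.3% of histone counts on Old2 and 22.0% on Old4. On Young1, Young3 and Young9 of P60 it made up 21.0%, 22.2% and 27.7%, so Old4 lay among the plates of P60.

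Members differed in how far their counts were held by on wells. Of 46 members with at least 50 counts, 24 had at least 90% of them in the 43 on wells, 15 had 75 to under 90% and 7 had under 75%. Over all 7958 genes with at least 50 counts, 26 (0.327%) had at least 90%. They are the 24 members, Hist1h2an (now H2ac22) and H2ax. The members themselves defined the on wells, so nothing is read from that contrast. By class, the count with at least 90% was 9 of 11 for H2A, 8 of 12 for H2B, 5 of 10 for H3, 2 of 5 for H1 and 0 of 8 for H4. The median share in on wells was 95.7%, 94.6%, 91.3%, 75.6% and 75.3% in the same order.

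**Figure D4:**
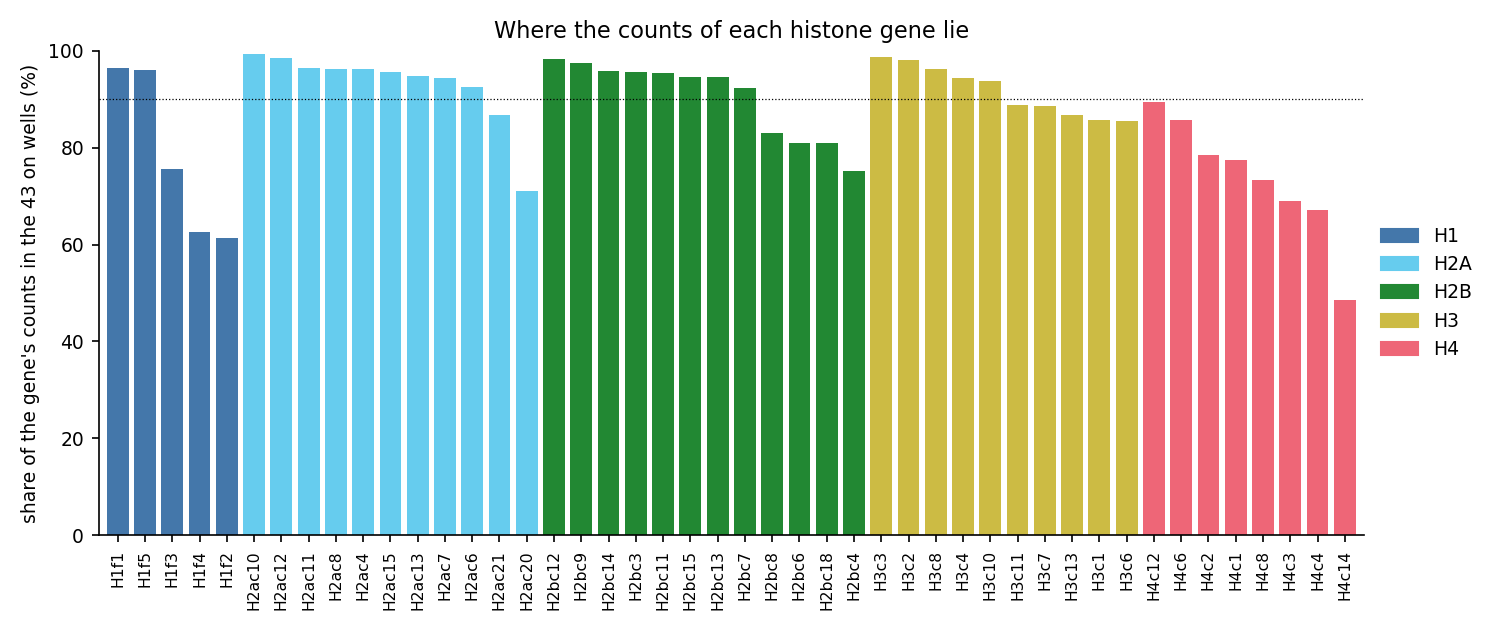
Share (%) of each histone gene's counts that lay in the 43 on wells, among wells with at least 500 counts, for the 46 genes with at least 50 counts, sorted within class; the dotted line marks 90%. H2ac10 is highest at 99.4% and H4c14 lowest at 48.4%.

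H1 linker genes fell into a pair of on-well genes and 3 broader ones. H1f1 had 711 counts in on wells and 20 in off wells, and H1f5 had 1068 and 33. H1f2 had 817 and 453, H1f4 905 and 481, and H1f3 1434 and 377. H1f2 and H1f4 had a count in 301 and 317 of the 1170 off wells, H1f1 in 20. In P758 H1f2 stood at 2924 CPM in on and 148 CPM in off wells, and in P60 at 3153 and 167 CPM. H1f1 stood at 2229 and 9.0 CPM in P758 and at 2792 and 6.48 CPM in P60.

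H2A genes were the closest to all-or-none. H2ac10 had 938 counts in on wells and 4 in off wells. It stood at 4430 CPM in on wells of P758 and 3457 CPM in those of P60, with 0 and 1.99 CPM in their off wells. H2ac15 had 733 and 29 counts. H2ac12 had 190 and 3. The exceptions lie on chromosome 3: H2ac20 with 352 and 118 counts, 71.0% of its counts in on wells, and H2ac21 with 65 and 8 counts, 86.7%. H2ac18 and H2ac19 had no count, and H2ac1, a testis H2A gene, had 1. Whether reads of near-identical copies were dropped was not tested, so a missing count does not show that a gene was untranslated.

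H2B genes held the largest number of on-well counts. H2bc18 (1760 counts in on wells, 356 in off), H2bc8 (1055 and 170) and H2bc3 (923 and 31) led the class. In on wells H2bc18 reached 9873 CPM in P758 and 6248 CPM in P60, beside 165 and 112 CPM in their off wells. H2bc12, whose promoter is given above, had 485 and 5 counts. H2bc21 went the other way, with 1 count in on wells and 20 in off wells, from 26 counts in all. H2bc1, a testis H2B gene, had 1 count. H2bc4, H2bc6 and H2bc21 are listed in RefSeq with spans of 8282, 37455 and 2667 bases, far longer than the others.

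H3 genes were low and mostly held by on wells. H3c7 had 475 counts in on wells and 51 in off wells, H3c2 469 and 7, H3c13 377 and 45, and H3c3 304 and 3. In on wells H3c2 stood at 3127 CPM in P758 and 1590 CPM in P60, with 3.86 and 1.99 CPM in off wells. H3c14 had no count and H3c15 had 1, with the same limit on near-identical copies. The lowest share in on wells among H3 genes with at least 50 counts was 85.5% (H3c6).

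H4 was the largest class outside on wells. H4c14, on chromosome 3, had 748 counts in on wells and 674 in off wells, and it had a count in 401 of the 1170 off wells (34.3%). H4c4 had 1648 and 641 counts, H4c8 988 and 302, and H4c3 297 and 118. H4c14 stood at 3272 CPM in on and 246 CPM in off wells of P758, and at 2796 and 238 CPM in P60. The 4 members with the highest off-well counts, H4c14, H4c4, H1f4 and H1f2, made up 46.8% of histone counts in off wells and 16.5% in on wells. Per kilobase of gene span H4c14 ranked 1 in off wells at 621 CPM and 5 in on wells at 7445 CPM. H4c4 ranked 2 and 1 at 564 and 15668 CPM. H2ac10 ranked 7 in on wells at 7113 CPM and 43 in off wells at 2.81 CPM.

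The 3 stretches of the genome that hold the members differed in the same quantity. The 15 members at chr13:21715711-22043658 had 94.9% of their counts in on wells, the 30 at chr13:23531044-23934913 80.1%, and the 10 at chr3:96219885-96270192 69.6%. They gave 18.3%, 66.1% and 15.6% of all histone counts. Near-identical copies are common in these clusters, so a read of one gene may have been given to another or dropped. Rows under other names bear on this: H4f16 (829 counts, a RefSeq synonym of 12 H4 genes) had 67.5% of its counts in on wells, Hist1h4m (now H4c17) 80.1% of 261, Hist1h4n (now H4c18) 78.1% of 237, Hist1h2an 95.8% of 189 and Hist1h2bp (now H2bc22) all of 16.

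The study asks how translation changes with age, and no member that could be tested passed the age test. The histone share of counts was 0.116% in P662, 0.0854% in P722 and 0.695% in P758, beside 0.210% in P57, 0.445% in P59 and 1.04% in P60. Old animals averaged 0.299% ± 0.343 and young ones 0.567% ± 0.430 (SD over 3 animals), and the groups overlapped. The difference of the means, old minus young, was -0.268 percentage points with all animals and -0.0287 without P60. Without on wells the shares were 0.116%, 0.0854% and 0.185% in old and 0.210%, 0.445% and 0.212% in young animals, with every old animal below every young one. That order depends on shallow wells. Among wells with at least 500 counts that were not on, the shares were 0.129%, 0.0501% and 0.178% in old and 0.0674%, 0.562% and 0.202% in young animals, and the ages overlapped. They overlapped in off wells too, with P57 at 0.0674% and P59 at 0.0581% below P758 at 0.155%. Of the 55 histone counts of P59 behind the 0.445%, one well held 32.7%.

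edgeR's quasi-likelihood test on counts summed per animal called 0 of the genes it kept (0%) at a Benjamini-Hochberg adjusted p of 0.05. Its filter on low counts kept only a small part of the 22416 genes, far fewer than the limma-voom fit below. The 0% therefore covers genes with high counts and is not a result for the whole genome. Before adjustment 25 of the kept genes lay under 0.05. DESeq2, on as many genes, also called 0 (0%), and 6 lay under 0.05 before adjustment. limma-voom on plates, with the animal as a block, tested 4206 genes, 38 of them members, and called 0 (0%). Before adjustment 105 genes, 6 of them members, lay under 0.05 in that fit. The members share on wells, so these are not separate results. Only 5 of the 55 members passed the filter on low counts of the edgeR fit: H1f2, H1f3, H2bc8, H2bc18 and H4c4 (each edgeR adjusted p = 0.998). H1f2 had 42.5 CPM in P662, 77.6 in P722 and 259 in P758, beside 382 in P57, 323 in P59 and 471 in P60. The fitted log2 difference was -1.17 (SE 0.45). All old animals lay below all young ones, which held for 1.29% of all genes with a count and for H1f2 alone among the members. It rests on 3 and 1 counts in P662 and P722 and on 2 and 4 in P57 and P59.

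The other 4 overlapped between the ages. H1f3 had 42.5, 77.6 and 369 CPM in P662, P722 and P758, and 382, 243 and 672 CPM in P57, P59 and P60, a log2 difference of -1.15 (SE 0.59). H2bc8 had 70.9, 0 and 253 CPM against 0, 243 and 448 CPM (log2 difference -1.02, SE 0.49). H2bc18 had 42.5, 0 and 565 CPM against 191, 647 and 717 CPM (-0.95, SE 0.85). In each of these 3 the largest values were those of P60, and H2bc8 had no count in P722 and P57. H4c4 had 283, 233 and 617 CPM against 382, 323 and 807 CPM (-0.48, SE 0.46).

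The remaining leading members show how thin the shallow animals are. H1f4 had 156, 155 and 232 CPM in P662, P722 and P758 and 0, 404 and 530 CPM in P57, P59 and P60. H4c14 had 128, 155 and 406 CPM against 191, 162 and 518 CPM, and H4c8 56.7, 77.6 and 359 CPM against 191, 162 and 443 CPM. Both overlapped between the ages. H2bc3 had 14.2, 0 and 223 CPM against 0, 162 and 323 CPM, and H2ac15 14.2, 0 and 126 CPM against 0, 0 and 275 CPM. H2ac10 and H3c7 had counts in P758 and P60 alone, at 172 and 333 CPM for H2ac10 and 147 and 172 CPM for H3c7. H2ac20 had 14.2, 0 and 112 CPM against 0, 80.8 and 169 CPM, H3c2 14.2, 0 and 124 CPM against 0, 0 and 155 CPM, and H3c13 0, 0 and 78.1 CPM against 191, 0 and 154 CPM.

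Of the 52 members with a count, 51 were higher in P60 than in P758 by CPM, among them H2bc1 and H3c15 with 1 count each. The same count was not made over all genes. It sets 1 animal against 1 animal, and the members share the same on wells, so these are not 51 separate results. Each of the 5 members tested by edgeR with its filter had a negative log2 difference of old against young. So did 337 (46.7%) of all genes tested in that fit. With genes kept at a summed count of 10 or more, 49 members were fitted and 49 had a negative difference (48.6% of the 11266 genes), with a median of -0.79. The test then called 118 genes (1.05%, or 0.346% as lower in old) and 1 member. That was H4c12, which fell by 3.58 (edgeR adjusted p = 1.2e-05), from 65 counts in P60 and 2 in P758 and none in the other animals. Without any filter it called 0.699% of genes, 0.227% as lower in old, and again H4c12 among the members. In that fit 51 of 52 members had a negative difference (50.8% of all genes), with a median of -0.82. Without on wells, and again with no filter, it was 40 of 51 members (50.8% of all genes), with a median of -0.47. That fit called 0.651% of genes, 0.196% as lower in old, and 1 member, H3c1, which was higher in old.

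What else the on cells translated was tested on genes outside the rule. The gene lists used below were chosen with earlier results of these data known. In P60 and P758, the counts of on and of off wells were summed per animal and compared within the animal, with members left out of the totals. edgeR tested 7419 genes and called 945 (12.7%): 531 were higher (7.16%) and 414 lower (5.58%) in on wells. Of them 931 moved the same way in both animals. The fit has 4 summed libraries and 1 residual degree of freedom, and DESeq2 called 315 (4.25%), with 257 higher (3.46%) and 58 lower (0.782%). With plates in place of animals as blocks edgeR called 1304 of 6131 genes (21.3%), and more of them were lower (755, 12.3%) than higher (549, 8.95%), so that the balance of directions turned. With members kept in the fit 7.7% of genes were higher and 5.77% lower (13.5% in all). Among wells with more basal than spinous counts 8.55% were higher and 4.95% lower. There 833 of the 945 genes could be tested and 731 were called the same way.

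Genes of DNA replication rose with the histones. Of 40 tested genes of the S phase list 36 rose and none fell, with a median log2 difference of 2.49, beside -0.12 over all genes tested. DESeq2 called 21 of 38 as higher. With plates as blocks 36 of 41 were called, and 25 of 37 when Young3 was also left out. Rrm1, the large subunit of ribonucleotide reductase, had 1003 CPM in on and 135 CPM in off wells of P758 and 1524 and 159 CPM in P60. Its log2 difference was 3.05 (SE 0.37, adjusted p = 9.4e-15 by edgeR). Rrm2, its small subunit, rose by 5.41 (SE 0.49, adjusted p = 1.6e-25). Clspn, a checkpoint adaptor at replication forks, had 468 and 6.44 CPM in P758 and 358 and 10.5 CPM in P60 (log2 difference 5.37, SE 0.44). Mcm5, a subunit of the replicative helicase, rose by 2.75, Uhrf1 and Dnmt1, which maintain DNA methylation, by 4.04 and 1.72, Atad2, a chromatin ATPase, by 4.27, and Tk1, thymidine kinase, by 5.19. Rfc1 (0.41), Rpa1 (1.01), Gins4 (1.47) and Tipin (1.63) did not pass the test.

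Genes of G2 and mitosis rose as well. All 31 tested genes of that list were called higher, by edgeR and by DESeq2, with a median log2 difference of 4.14. Mki67, a marker of cycling cells, had 4347 CPM in on and 261 CPM in off wells of P758 and 6882 and 328 CPM in P60 (log2 difference 4.16, SE 0.39, edgeR adjusted p = 4.3e-24). Top2a, the topoisomerase that untangles DNA, had 4314 and 205 CPM in P758 and 6650 and 291 CPM in P60 (4.38, SE 0.39). Ccna2, cyclin A, rose by 4.59, Kif11, a spindle motor, by 4.60, Smc4, a condensin subunit, by 3.41 and Cenpf, a kinetochore protein, by 3.32. Over all 1329 wells thinned to 500 counts, the genes whose counts went most with the histone sum were Top2a (Spearman rho 0.248), Mki67 (0.233), H4f16, H2ax and Kif11, out of 5981 candidates. These values are low and describe sparse counts.

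Mitosis counts and histone counts met in most but not all cells. A threshold chosen after the values were seen marked wells with at least 10 counts of the G2 and mitosis list that made up at least 1% of the non-member counts. Of 59 such wells 41 were on, 2 between and 16 off. Of the 1270 other wells 2 were on. The split was present in each animal, with 31 on and 8 off of 41 such wells in P60 and 10 on and 7 off of 17 in P758. The 18 wells with mitosis counts that were not on had a histone share of 0.221%, close to the 0.194% of the 1268 wells that were neither. Their S phase list made up a median of 0.224% of non-member counts, beside 0.851% in on wells, while the G2 and mitosis list was near in size at 3.11% and 3.36%. Their 246 histone counts were 36.6% H4 and 8.94% H2A.

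**Figure D5:**
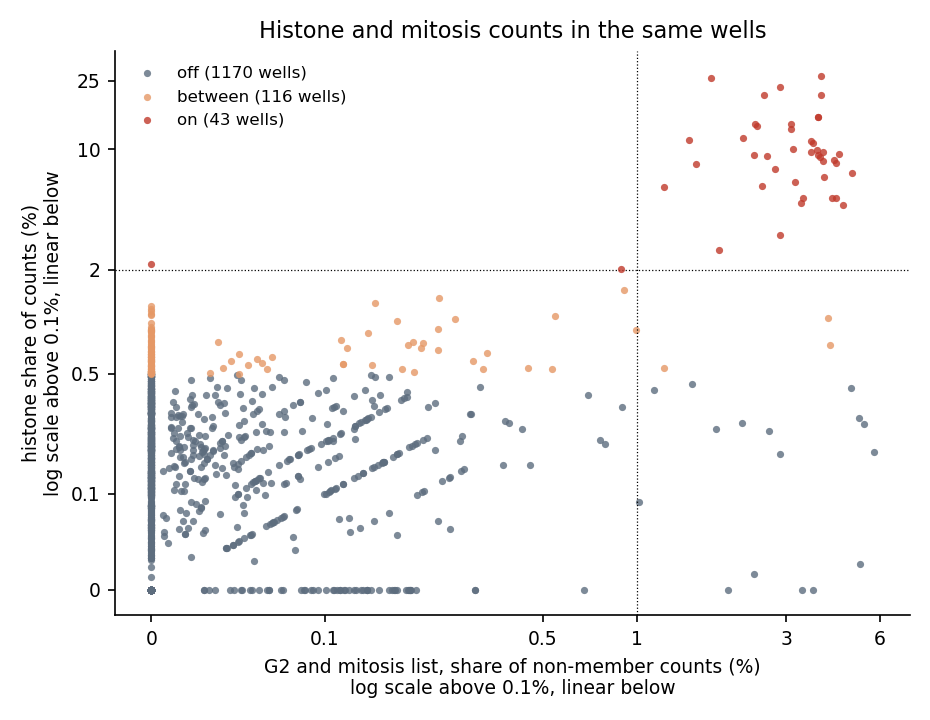
Histone share of counts (%) against the share of non-member counts from the G2 and mitosis list (%) in the 1329 wells with at least 500 counts (log scales above 0.1%, linear below), coloured by state; dotted lines mark 1% and 2%. The on wells lie at the upper right with 2 exceptions, and 16 off wells lie at the lower right.

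The genes listed as replication-independent histones moved less uniformly. Of the 7 tested genes of this list 5 rose. H2ax, though placed on the list, was spread like many members, with 93.1% of its 494 counts in on wells. Whether H2ax is replication-independent in these cells was not tested. H2ax, whose product marks DNA breaks, had 2809 CPM in on and 10.3 CPM in off wells of P758 and 1818 and 9.49 CPM in P60 (log2 difference 7.71, SE 0.45, edgeR adjusted p = 2.4e-60). H2az2, an H2A.Z gene, rose by 3.07, H1f0, a linker histone of resting cells, by 1.96, H3f3b, an H3.3 gene, by 1.56 and Macroh2a2 by 2.20. DESeq2 did not call H3f3b and gave Macroh2a2 no adjusted p. Macroh2a1 (-0.45) and H2aj (0.32) did not pass. The histone rows under other names are among the largest rises, with Hist1h2bp at 8.68, Hist1h2an at 8.56, Hist1h4m at 6.00 and Hist1h4n at 5.90, while H2aw rose by 5.18 and H4f16 by 4.84. By RefSeq, Hist1h2bp, Hist1h2an, Hist1h4m and Hist1h4n are H2bc22, H2ac22, H4c17 and H4c18, names of clustered genes like the members. They are not part of the replication-independent list. Whether the rows under other names share reads with members was not tested.

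Most factors that process or degrade histone mRNA did not pass the test. Of 15 tested genes 2 rose. Slbp, the stem-loop binding protein, had 167 CPM in on and 18.0 CPM in off wells of P758 and 164 and 28.5 CPM in P60 (log2 difference 2.70, SE 0.49, edgeR adjusted p = 1.3e-06). Eri1, an exonuclease that trims histone mRNA ends, rose by 1.96, without a call by DESeq2. Npat, the activator of histone transcription, had a log2 difference of 1.33 (SE 0.52, adjusted p = 0.0761), Pou2f1, which binds the octamer, 0.70, and Upf1, a helicase of histone mRNA decay, -0.02. Srrt (0.72), Ncbp1 (0.05) and Sympk (-0.34) did not pass either. Lsm10, Lsm11 and Zfp473, which act in 3′ end processing, were too low to be tested.

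Of 16 tested histone chaperone genes 7 rose and none fell. Asf1b, which hands H3 and H4 to assembly factors, had 268 CPM in on and 5.15 CPM in off wells of P758 and 179 and 6.49 CPM in P60 (log2 difference 5.00, SE 0.53, edgeR adjusted p = 6.8e-19). Chaf1a, of the CAF-1 complex that loads histones behind the fork, rose by 3.43, and Hjurp, the chaperone of the centromeric H3, by 2.21. Hat1, which acetylates new H4, rose by 1.79, Rbbp7 by 1.67, Rbbp4 by 1.21 and Ssrp1, of the FACT complex, by 1.10. DESeq2 called 3 of 14 of these genes. Nasp (0.75), Supt16 of FACT (0.78), Hira (-0.67), which loads H3.3, and Asf1a (-0.07) did not pass.

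The rule for the largest rises also named genes that are no histones. E2f7, a repressor of E2F targets, rose by 6.54, Mcm10, a replication initiation factor, by 6.05, Bard1, the partner of Brca1, by 5.81 and Foxm1, a transcription factor of mitotic genes, by 5.75. H2bu2, a further H2B gene, rose by 6.27. The largest falls had no count in on wells. Against a floor of 3 counts over the on wells, Krt79, a keratin of the upper hair follicle, was at least 128-fold lower, with 4491 counts in off wells. Dsc1, a desmosomal cadherin of upper layers, was at least 16.8-fold lower, Krt78 16.3-fold, Acer1, an alkaline ceramidase, 12.3-fold, and Akr1c18 and Hmcn1 11.4-fold. The bounds of Npl, Nectin4, Grhl3 and Cd3g ran from 7.78 to 8.63-fold. DESeq2 called 2 of these 10. Off wells pool several cell types: 152 of the 1170 held at least 3 counts of upper hair follicle markers and 42 at least 3 of T cell markers. Whether the falls reflect the cell types among off wells was not tested.

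The on wells were mostly basal by their markers. Of 43 on wells 42 held more basal than spinous counts, beside 860 of 1170 off wells. In P60 32 of 642 wells with more basal counts were on (4.98%) and 0 of the 165 others, which allows a share of up to 2.21%. In P758 it was 10 of 333 (3.00%) and 1 of 139 (0.719%, exact 95% interval 0.0182 to 3.94), and that well is the one with 11 histone counts. All 6 spinous markers fell by edgeR, and DESeq2 called 4 of them. Krt10, the keratin of spinous cells, had 970 CPM in on and 24806 CPM in off wells of P758 and 53.2 and 16484 CPM in P60 (log2 difference -6.40, SE 0.50, edgeR adjusted p = 1.5e-33). The on well with 11 histone counts gave 27 Krt10 counts, most of those in on wells of P758. Krt1 fell by 6.72. Sbsn fell by 5.62. Krtdap fell by 4.90, Dmkn fell by 2.82 and Lgals7 fell by 1.18. Of the 6 basal markers Krt14 rose by 1.19, but not among wells with more basal than spinous counts (0.71, adjusted p = 0.151), and DESeq2 called no basal marker. Krt5 (0.64), Itgb4 (0.68), Col17a1 (-0.09), Itga6 (-0.31) and Krt15 (-0.86) did not pass. Krt15 was called lower among those wells (-1.15, adjusted p = 0.00937).

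Markers of other cell types were scarce in most on wells, and most of these lists were scarce in off wells too. The 4 upper hair follicle markers fell, with Krt17 at -2.53, and DESeq2 called 3 of them. Of 3 tested outer bulge markers 1 fell, Sox9 (-2.58), while Krt24 (-1.29) and Postn (-0.34) did not pass. Postn stood higher in on than in off wells of P758 (1204 and 533 CPM) and lower in P60 (106 and 362 CPM). Of 3 tested sebaceous markers 1 fell, Scd1 (-1.98), while Mgst1 (-2.20) and Elovl5 (-0.44) did not pass. DESeq2 called none of either list. Of the T cell list, Cd3e, Cd3g, Cd3d, Trdc and Ptprc had 0 counts in on wells, and Thy1 rose by 1.39, while DESeq2 called 1 of 4 of this list as lower and none as higher. The melanocyte, fibroblast and endothelial lists had no count in any on well. Only 2, 1 and 0 of the 1170 off wells held at least 3 counts of them, so nothing is read from their absence. One on well of Old2 held 102 counts of the Langerhans list (Cd74 57, H2-Ab1 21, H2-Eb1 12, H2-Aa 8, Cd207 4) together with 511 histone counts of 4519 (11.3%), from 44 members, and 214 basal counts. Each of the other on wells held at most 1 count of that list. The number of cells in that well was not tested.

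The plates outside the age comparison were described by the same rule. The nuclease test plate held 446 histone counts, 0.348% of its counts (0.317 to 0.382), with 2 on wells of 98 (2.04%, 0.248 to 7.18). These wells had 52 of 1393 counts (3.73%) from 24 members and 148 of 1966 (7.53%) from 37. Its class balance over all wells was 34.3% H1, 11.9% H2A, 25.3% H2B, 6.95% H3 and 21.5% H4. What was varied on it was not analysed here. The Sca-1-negative plate held 12 histone counts, 0.0691% of its counts (0.0357 to 0.121), and no on well among 8. Which of its wells hold young and which old cells was not analysed here.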

How the data were processed

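Ribosome footprints were measured in 12 plates of single cells. The authors deposited whole-number counts of footprints per gene and well. The submitters' processing notes name STAR, Bowtie2, featureCounts, fastp, UMI-tools and the build GRCm38.p6. How reads with several matches were handled is not given there. The members and gene lists were chosen with earlier results of these data known.

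Counts were summed over wells with at least 100 counts. The labels state 3 mice per age and call plates technical replicates, so plates with the same postnatal day were assumed to hold the same mouse. The age test was edgeR 4.0.16 (TMM, filterByExpr, robust quasi-likelihood fit) in R 4.3.3, adjusted over all genes at 0.05. On against off wells used the same test with the animal as a block in the 2 animals with at least 3 on wells. DESeq2 1.42.0 and limma-voom (limma 3.58.1) were alternatives. Every SE is the log2 difference divided by the square root of F. CPM of non-members leave the members out of the total. Tested on simulated counts, the on and off fit recovered 58.5% of 4-fold and 78.5% of 8-fold changes, and called 1 gene with no change. The simulation changed 200 genes and gave the animals no difference beyond depth, unlike the data. The age fit recovered 74.5% of 4-fold changes among the genes it tests, with 5.1% of its calls false, and 8.74% false at 8-fold. With genes kept at a summed count of 10, as for 49 members, it recovered 15% of 4-fold and 57% of 8-fold changes. There 6.25% and 8.06% of the calls were false.

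Named members are the 3 of each class with the highest counts and any called; list genes are the 5 highest in on wells and those called; other genes are the 10 largest rises and falls called, with the same direction in both animals and at least 20 CPM in the higher state. Others named were chosen after their values were seen. Intervals are exact (Clopper-Pearson, 95%). Motifs, sequences and gene spans come from RefSeq tables on GRCm38.p6. Python 3.11.15, pandas 2.3.3, scipy 1.17.1 and matplotlib 3.10.9 were used.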

Additional observations from a re-analysis of the deposited data

Results flagged for a closer look

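Dixon's test on the 5 young and the 5 old plates (8 groups of values) marked 1 plate. Without on wells, Young8 had the highest histone share of the young plates at 0.445%, with 55 counts. Young1, Young3 and Young9 are plates of 1 animal, P60, so the plates are not independent. The usual chance rate of about 1 flag in 20 groups therefore does not hold here. The other 4 young plates lay from 0.199% to 0.223%. In off wells alone Young8 had 0.0581%, from 2 wells.

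The nuclease test plate enters no comparison and held 446 histone counts, 0.348% of its counts. The Sca-1-negative plate held 12 histone counts, 0.0691% of its counts, more than the 3 that a count of 0 allows.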

How the results depend on the processing

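No paired analysis was possible because plate numbers differ between the ages. In the age test, no filter gave 111 genes and 1 member called, a summed count of 10 gave 118 and 1, and leaving out on wells without a filter gave 103 and 1. Leaving out each animal called from 0 to 0 genes and members, and without P60, P662 or P758 no member could be fitted. The old minus young difference in histone share was -0.27 percentage points and ran from -0.47 to -0.0287 when an animal or plate was left out. With at least 1000 counts per well 4.63% of all wells were on, and leaving out an animal gave 2.11% to 3.73%.

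The mean class shares changed with on wells only (H1 18.1%, H2A 16.7%, H3 13.9%, H4 22.2%), with at least 500 counts per well (H1 43.1%, H4 22.3%), and with counts summed over animals (H2A 14.1%). The means at 500 counts per well include P722, P57 and P59 with only 7, 4 and 3 wells. Leaving out each animal gave H1 25.2% to 29.1%, H2A 5.08% to 7.91%, H2B 20.2% to 25.2%, H3 5.82% to 8.35% and H4 33.3% to 39.0%.

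For on against off wells, DESeq2 called 315 genes (257 higher, 58 lower), no filter 619 (228 lower), and plates as blocks 755 lower. With plates as blocks and each plate left out, 786 to 1257 genes were called, 369 to 618 higher and 396 to 639 lower. Without Old2, which holds the well with Langerhans counts, Cd74 turned to -4.76 and H2-Eb1 to -3.10. Under these plate settings all 31 genes of the G2 and mitosis list stayed called, and 25 to 34 of the S phase list. Leaving out an animal left no residual degrees of freedom and was not run. The fits without on wells, among basal wells, with plates left out and over plates with no on well were chosen after seeing the data. Depth limits P57, P59 and P722, with 13, 48 and 38 kept wells.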
